A study of Rattus norvegicus with 9 samples.

Results

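Cholesterol synthesis genes were examined in the thalamus of young male Wistar rats that ate either solid chow, which has to be chewed, or powdered feed. The rule named 7 genes and took every probe set that the platform annotation assigned to a single symbol, which gave 11 probe sets for 6 of them (Sqle, Lss, Cyp51, Sc5d, Hsd17b7 and Dhcr7), out of 31042 rat probe sets and 14217 genes with such a probe set. The annotation used here listed no probe set under Hmgcs1, and that gene was not analysed here. There were 4 arrays from the chow group and 5 from the powder group, each from thalamic total RNA. The feeding began at 3 weeks of age, with 2 preparatory days on powder for all rats and then 8 days on the group's diet, and every sample is labelled as 5 weeks old. The powder animals therefore stayed on the feed that both groups had first received, and the groups were balanced by weight. The study set chow against powder to ask how chewing in the period after weaning bears on gene expression in the thalamus.

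The brain makes its own cholesterol, because lipoproteins of the blood hardly cross the blood-brain barrier. In the weeks after weaning much of it goes into myelin, made by oligodendrocytes, while astrocytes make cholesterol and pass it to neurons on apolipoprotein E. Acetyl units are joined into mevalonate and then squalene, squalene is cyclised to lanosterol, and lanosterol is trimmed, reduced and desaturated to cholesterol. The transcription factor SREBP2 raises these enzymes together when sterols in the endoplasmic reticulum are low.

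Most probe sets hardly varied in the deposited values. Of the 31042 rat probe sets, 84.4% spanned less than 0.01 log2 units over the 9 arrays, and 4849 spanned at least that much. The second kind are called variable here and the first kind near-constant, and a difference on a near-constant probe set carries a test result but almost no size. Of the 11 cholesterol synthesis probe sets, 6 were variable and 5 were near-constant, with spans of at most 0.000546. The variable ones belonged to Lss, Cyp51, Sc5d and Hsd17b7, whereas Sqle and Dhcr7 had near-constant probe sets only.

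Tissue markers were read on the same arrays before the comparison. Tcf7l2, a transcription factor that defines thalamic neurons, had its brightest probe set at 11.8 ± 0.222 on the chow arrays and 12.1 ± 0.0659 on the powder arrays (log2 value, mean ± SD, n = 4 and 5). The mean over 15 variable probe sets of thalamic neuron markers was 9.12 on array chow 1, against 9.50 to 9.74 on the other chow arrays and 9.53 to 9.64 on the powder arrays. Chow 1 also had the highest mean for markers of neighbouring regions (9.10, with 8.07 to 8.59 on the other chow arrays and 7.75 to 8.58 on the powder arrays), so that array stands apart and results are also given without it. Powder 1 stood apart for markers of the meninges. Their mean was 8.56 on that array, against 7.69 to 7.87 on the other powder arrays and 7.58 to 8.05 on the chow arrays. Astrocyte markers averaged 10.00 to 10.23 on the chow arrays and 9.84 to 9.95 on the powder arrays over 8 variable probe sets. The 10.23 was again chow 1, and the other chow arrays lay at 10.00 to 10.03. Of these, 2 were called higher and 0 lower (Aqp4 at 0.534 ± 0.0865 and Slc1a3 at 0.527 ± 0.13). The brightest probe sets of the same genes were not called, at -0.136 for Aqp4 and 0.0209 for Slc1a3, and neither was Gfap at -0.2. The median difference over the 8 was 0.08, so the higher mean was not shared evenly by the list. Oligodendrocyte and myelin markers overlapped between the diets, at 11.07 to 11.25 and 11.07 to 11.27 over 16 variable probe sets (1 called higher, Ermn, and 1 lower, Mobp), as did those of oligodendrocyte precursors, at 8.28 to 8.61 and 8.37 to 8.61. Of the other lists, thalamic neurons had 1 variable probe set called lower of 15 (Tcf7l2). Endothelium and pericytes had 2 lower of 4 (Flt1, Slco1a4), and neighbouring regions 1 lower of 11 (Prox1). Called in either direction were 0 of 3 for precursors, 0 of 4 for microglia and 0 of 8 for meninges. Choroid plexus and blood had only 1 variable probe set each, not called. Among all 4849 variable probe sets, 16.1% were called higher and 38.8% lower. The control for RNA integrity, the 3′ minus the 5′ probe set of beta-actin, was 1.44 to 1.58 under chow and 1.55 to 1.70 under powder (log2 difference, means 1.52 and 1.65, two-sided exact permutation p = 0.0238). The part of astrocyte content in the results below was not tested, and in bulk tissue a change in the number of cells of a type and a change in RNA per cell cannot be told apart.

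**Figure D1:**
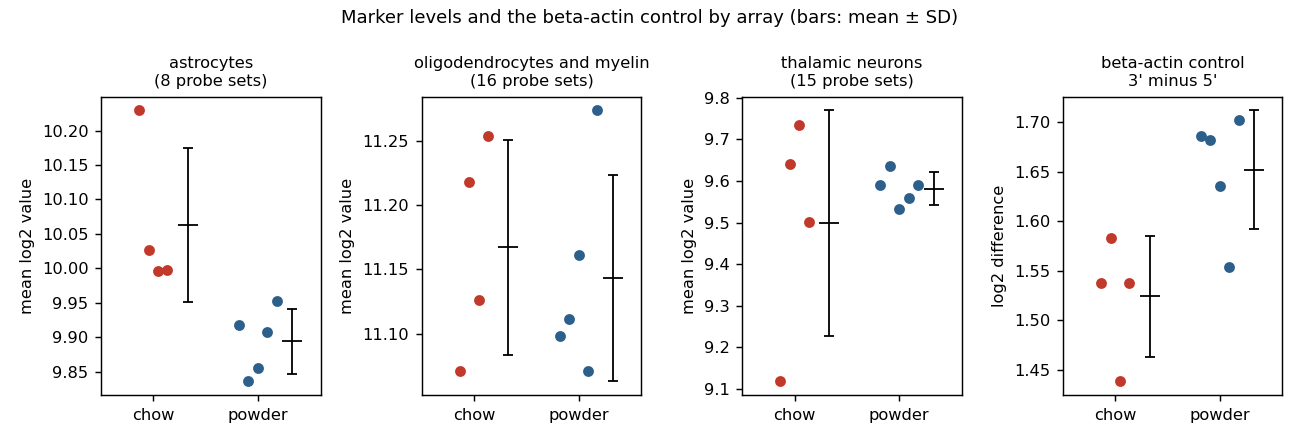
Mean log2 value of the variable probe sets of 3 marker lists, and the 3′ minus 5′ log2 difference of the beta-actin control, on each array (points), with mean ± SD beside each group (4 chow arrays in red, 5 powder arrays in blue). Astrocyte means lie at 10.00 to 10.23 on the chow arrays and at 9.84 to 9.95 on the powder arrays (rounded), myelin means overlap, chow 1 lies at 9.12 for thalamic neurons, and the beta-actin difference is mostly smaller under chow.

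The start regions of the 4 genes with a variable probe set are shown so that their regulatory letters can be compared with the values that follow. They are the bases upstream of the annotated gene start in RefSeq, build GRCr8, written 5′ to 3′ on the gene's own strand. Capitals mark a CCAAT box (CCAAT or its reverse complement, read by the factor NF-Y) or a GC box (GGGCGG or its reverse complement, read by Sp1), both of which are partners of SREBP at sterol genes. The window is 250 bases except for Hsd17b7, where 194 bases lie outside the annotated gene.
Lss, chr20:12118231-12118480, minus strand: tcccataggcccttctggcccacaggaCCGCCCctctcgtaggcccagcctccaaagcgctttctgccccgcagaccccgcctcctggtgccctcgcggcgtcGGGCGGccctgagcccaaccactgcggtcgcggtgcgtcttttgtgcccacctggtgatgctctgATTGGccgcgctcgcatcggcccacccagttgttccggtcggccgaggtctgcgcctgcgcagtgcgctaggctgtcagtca
Cyp51, chr4:30991443-30991692, plus strand: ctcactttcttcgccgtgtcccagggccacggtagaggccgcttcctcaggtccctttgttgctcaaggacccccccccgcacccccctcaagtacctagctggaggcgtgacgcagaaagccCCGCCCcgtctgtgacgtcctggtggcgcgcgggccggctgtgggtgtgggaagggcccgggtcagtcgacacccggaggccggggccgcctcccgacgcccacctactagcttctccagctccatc
Sc5d, chr8:51538278-51538527, minus strand: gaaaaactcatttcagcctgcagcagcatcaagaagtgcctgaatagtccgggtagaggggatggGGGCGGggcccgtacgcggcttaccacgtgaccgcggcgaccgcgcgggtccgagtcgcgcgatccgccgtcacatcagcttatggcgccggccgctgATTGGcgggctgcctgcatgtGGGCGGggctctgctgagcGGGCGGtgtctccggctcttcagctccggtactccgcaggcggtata
Hsd17b7, chr13:84722811-84723004, minus strand: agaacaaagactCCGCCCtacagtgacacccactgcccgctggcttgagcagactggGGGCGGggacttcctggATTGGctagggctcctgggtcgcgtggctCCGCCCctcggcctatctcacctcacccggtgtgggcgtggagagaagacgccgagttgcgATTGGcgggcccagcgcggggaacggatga
A GC box was found in all 4 windows (2 in Lss, 1 in Cyp51, 3 in Sc5d and 3 in Hsd17b7) and a CCAAT box in 3 of them (1 in Lss, 1 in Sc5d and 2 in Hsd17b7), with 0 in Cyp51. Over 33469 RefSeq promoter windows of 250 bases, 30.5% held a GC box and 34% a CCAAT box on either strand. The form TCACNCCAC of the sterol regulatory element, searched on both strands, was found in 0 of the 4 windows and in 0.974% of all promoter windows. Other forms of the element were not searched for. These matches describe letters in the windows and no binding was measured.

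In the chow group 3 of the 6 variable probe sets were lower and 1 was higher. Cyp51, Sc5d and Hsd17b7, which act in that part of the route where lanosterol becomes cholesterol, each had 1 lower probe set, and the higher one was a second probe set of Sc5d. The called differences were small, from -0.25 to 0.22 on the log2 scale, or 0.84-fold to 1.16-fold. Among all 4849 variable probe sets 54.9% were called at an adjusted p under 0.05, 16.1% as higher and 38.8% as lower, so that 4 called of 6, with 1 higher and 3 lower, lies near the share in variable probe sets at large. The median difference was -0.16 over the 6 and -0.11 over all variable probe sets. Counting near-constant probe sets too, 1 of the 11 was higher and 4 were lower, where 34.6% of all rat probe sets were called, 17.9% higher and 16.7% lower.

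**Figure D2:**
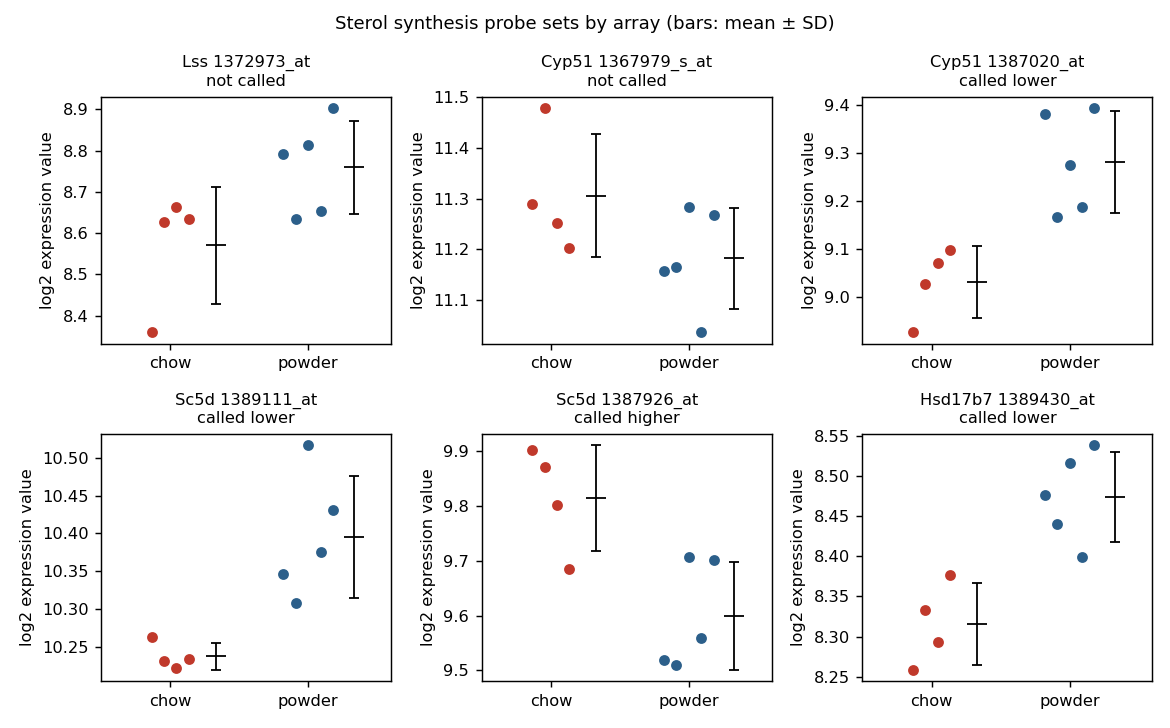
Log2 expression value of the 6 variable cholesterol synthesis probe sets on each array (points), with mean ± SD beside each group (4 chow arrays in red, 5 powder arrays in blue). For 1 probe set each of Cyp51, Sc5d and Hsd17b7 every chow array lies below every powder array, and for the second Sc5d probe set the chow mean is higher although the arrays overlap.

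Sqle, the squalene epoxidase that commits squalene to sterols and is a control point of the route, had 1 near-constant probe set. It lay at 9.5943 on average under chow and 9.5943 under powder (SD 1.92e-05 and 0.000212), a difference of -2.46e-05 ± 0.000105 (adjusted p = 0.868). No size of change can be read from it.

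Lss, the synthase that folds oxidosqualene into lanosterol, had a variable probe set, 1372973_at, at 8.36, 8.63, 8.66 and 8.63 on the chow arrays, against 8.79, 8.63, 8.81, 8.65 and 8.90 on the powder arrays. Chow 1 was the lowest of all 9 arrays and the groups overlapped. The difference was -0.19 ± 0.0823 (0.88-fold, adjusted p = 0.11) and was not called, and without chow 1 it was -0.12 (adjusted p = 0.213). The second Lss probe set, 1368086_a_at, was near-constant and not called (5.7e-05 ± 7.08e-05, adjusted p = 0.542).

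Cyp51, the cytochrome P450 that removes a methyl group from lanosterol, was measured by 2 variable probe sets. On 1387020_at the values were 8.93, 9.03, 9.07 and 9.10 on the chow arrays, against 9.38, 9.17, 9.27, 9.19 and 9.39 on the powder arrays. Every chow array lay below every powder array, which held for 3 of the 6 variable probe sets here, with 0 lying wholly above. Over all variable probe sets the chow arrays lay wholly below in 36% and wholly above in 14.1%, or 50% in either direction. This probe set fell by 0.25 on the log2 scale under chow (-0.25 ± 0.0611, 0.84-fold, adjusted p = 0.0205), the largest called difference among the cholesterol synthesis probe sets. With each array left out in turn it stayed between -0.28 and -0.22 (adjusted p from 0.0219 to 0.0482, the last without chow 1).

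The brighter Cyp51 probe set, 1367979_s_at, lay on the other side. Its values were 11.29, 11.48, 11.25 and 11.20 on the chow arrays, against 11.16, 11.16, 11.28, 11.04 and 11.27 on the powder arrays. The groups overlapped, chow 2 was the highest of all arrays, and the difference of 0.12 ± 0.0711 was not called (1.09-fold, adjusted p = 0.2). The manufacturer's suffix _s_at marks probes that match more than one transcript, so signal from a related transcript cannot be separated from that of Cyp51.

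Hsd17b7, the ketoreductase that takes part in removing further methyl groups from the sterol ring, had the smallest adjusted p among the 6 variable cholesterol synthesis probe sets. Its probe set 1389430_at read 8.26, 8.33, 8.29 and 8.38 on the chow arrays, against 8.48, 8.44, 8.52, 8.40 and 8.54 on the powder arrays. The groups did not overlap, although the highest chow array (8.38) and the lowest powder array (8.40) were close. It fell by 0.16 on the log2 scale under chow (-0.16 ± 0.0354, 0.90-fold, adjusted p = 0.0155) and was at -0.14 without chow 1 (adjusted p = 0.0378). The near-constant probe set 1387233_at of Hsd17b7 was not called (4.11e-05 ± 5.53e-05, adjusted p = 0.574).

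Sc5d, the desaturase that makes the last intermediate before cholesterol, had 3 probe sets, and all 3 were called. The brightest, 1389111_at, read 10.26, 10.23, 10.22 and 10.23 on the chow arrays, against 10.35, 10.31, 10.52, 10.38 and 10.43 on the powder arrays. All chow arrays lay below all powder arrays, and the chow arrays were closer to each other (SD 0.0175) than the powder arrays were (SD 0.0809). It fell by 0.16 on the log2 scale under chow (-0.16 ± 0.0405, 0.90-fold, adjusted p = 0.024). The call was lost without any 1 of chow 2, chow 3, chow 4 or powder 5, with adjusted p from 0.0508 to 0.0555.

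The second, 1387926_at, went the other way, at 9.90, 9.87, 9.80 and 9.68 on the chow arrays, against 9.52, 9.51, 9.71, 9.56 and 9.70 on the powder arrays. Chow 4 lay below powder 3 and powder 5, so the groups overlapped. It rose by 0.22 under chow (0.22 ± 0.0632, 1.16-fold, adjusted p = 0.0358). This call was lost without any 1 of chow 1, chow 2, chow 3, powder 1, powder 2 or powder 4, with adjusted p from 0.0641 to 0.0857 and a difference of 0.19 or more. The third, 1390777_at, was near-constant and called lower by -0.000168 ± 3.54e-05 (adjusted p = 0.013), and its direction turned under both rescalings of the arrays (0.02 after quantile normalization, 0.0064 with array medians subtracted).

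Dhcr7, the reductase that completes cholesterol, had 1 near-constant probe set, at -0.000126 ± 0.000109 (adjusted p = 0.381). As with Sqle, the values do not show whether the transcript changed in size.

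The disagreement between probe sets of 1 gene, noticed in these values, was then described within each array, where differences common to the whole array cancel. Cyp51 and Sc5d were the only cholesterol synthesis genes with 2 variable probe sets. Because the disagreement had already been seen in the same values, no test is given. For Cyp51, the 1367979_s_at value minus the 1387020_at value was 2.36, 2.45, 2.18 and 2.11 on the chow arrays, against 1.78 on powder 1, 1.85 on powder 4, 1.87 on powder 5 and 2.01 on powder 3, with powder 2 just under powder 3. For Sc5d, the 1389111_at value minus the 1387926_at value was 0.36, 0.36, 0.42 and 0.55 on the chow arrays, against 0.83, 0.80, 0.81, 0.82 and 0.73 on the powder arrays. Neither gene's groups overlapped. The gap was 0.37 larger under chow for Cyp51 (2.28 ± 0.16 on chow arrays and 1.90 ± 0.0998 on powder arrays, SD, n = 4 and 5) and for Sc5d differed by -0.37 (0.42 ± 0.0888 and 0.80 ± 0.0392). These gaps restate the separate differences above. For Sc5d the probe sets were called in opposite directions, and for Cyp51 1 was called lower and the other was not called, so the sign depends on the probe set read. Such disagreement was common on these arrays, since among 440 genes with 2 or more variable probe sets 67 (15.2%) were called in both directions, or 41.4% of the 162 genes with 2 or more called. Where the probes lie in the transcripts is not given in the sources used here. The beta-actin 3′ to 5′ difference moved with the diets as given above. With that difference as a covariate, 0 of the 11 probe sets were called in either direction, the differences were -0.20 for Cyp51 1387020_at, -0.16 and 0.24 for the 2 variable Sc5d probe sets and -0.10 for Hsd17b7 (adjusted p from 0.174 to 0.247), and 1429 of all 31042 probe sets were called.

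**Figure D3:**
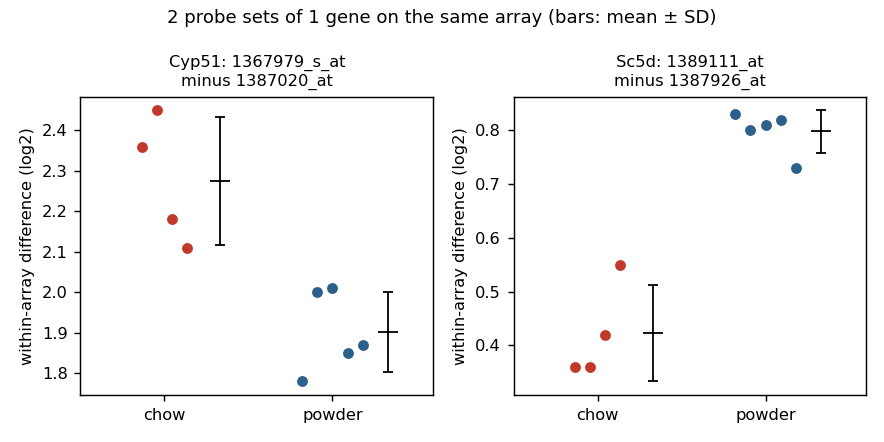
Within-array log2 difference between the 2 variable probe sets of Cyp51 (left) and of Sc5d (right) on each array (points), with mean ± SD beside each group (4 chow arrays in red, 5 powder arrays in blue). For Cyp51 the chow arrays lie at 2.11 to 2.45 and the powder arrays at 1.78 to 2.01, and for Sc5d the chow arrays lie at 0.36 to 0.55 and the powder arrays at 0.73 to 0.83 (rounded).

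The rest of the pathway was read from 7 lists of 73 other genes, 65 of which had a single-symbol probe set. Of their 100 probe sets 6 were higher and 17 lower under chow, beside 17.9% higher and 16.7% lower of all rat probe sets. Of the 21 variable ones, each from a different gene, 1 was higher and 9 were lower, again beside 16.1% and 38.8% of all variable probe sets. The median difference over the 21 was -0.12, against -0.11 over all variable probe sets. Without chow 1 the counts over the 21 were 1 higher and 9 lower, and with the beta-actin covariate 0 and 0.

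The other genes of synthesis could hardly be read, since nearly all their probe sets were near-constant. From the mevalonate steps to squalene 1 of 11 probe sets was variable, that of Idi1, the isomerase that makes the reactive isoprenoid unit, at -0.13 ± 0.0693 (adjusted p = 0.165). Fdft1, the squalene synthase, had near-constant probe sets at 4.54e-05 and -4.35e-05, neither called. Among the other late enzymes Tm7sf2, a sterol reductase, was at 0.06 ± 0.0875 (adjusted p = 0.6) and the 1 call was a near-constant lower probe set of Nsdhl, which works beside Hsd17b7 in removing methyl groups. In the side branches that use isoprenoids for other ends, Fntb, a subunit of protein farnesyltransferase, was at -0.06 ± 0.0744 (adjusted p = 0.509), and Ggps1 and Pdss2 were called on near-constant probe sets, the one higher and the other lower.

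Among the regulators, Mbtps2, the protease whose cut releases SREBP from the membrane, was the 1 variable gene. It read 7.78, 7.81, 7.81 and 7.81 on the chow arrays, against 8.10, 8.09, 7.97, 7.96 and 7.97 on the powder arrays, with no overlap. It fell by 0.21 on the log2 scale under chow (-0.21 ± 0.0351, 0.86-fold, adjusted p = 0.00629). Srebf2, the gene of SREBP2, had 2 near-constant probe sets, at 0.000395 (called higher) and -0.000143 (not called), and Insig1, which holds SREBP back when sterols are high, was at -1.99e-05 and not called.

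Uptake and transport genes included 2 lower and 0 higher of 4 variable ones, where 38.8% of all variable probe sets were lower and 16.1% higher. Lrp8, a receptor for apolipoprotein E and reelin, read 8.59, 8.76, 8.60 and 8.64 on the chow arrays, against 8.95, 8.94, 8.88, 8.86 and 8.88 on the powder arrays. It fell by 0.26 on the log2 scale (-0.26 ± 0.0383, 0.84-fold, adjusted p = 0.00482) and its groups did not overlap. Lipa, the lysosomal lipase that frees cholesterol from taken-up esters, read 8.49, 8.59, 8.77 and 8.77 on the chow arrays, against 9.07, 8.92, 9.10, 8.90 and 9.11 on the powder arrays. It fell by 0.36 on the log2 scale (-0.36 ± 0.0768, 0.78-fold, adjusted p = 0.0131), again with no overlap. The sterol carrier Stard4 was at -0.23 ± 0.0841 (adjusted p = 0.0678) and the lipoprotein receptor Scarb1 at 0.15 ± 0.0589 (adjusted p = 0.0813), neither called.

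Export and turnover genes gave 2 lower and 0 higher of 6 variable ones, again beside 38.8% lower and 16.1% higher over all variable probe sets. Abca7, a lipid transporter of the same family as Abca1, read 7.93, 8.25, 8.39 and 8.10 on the chow arrays, against 8.62, 8.71, 8.67, 8.46 and 8.67 on the powder arrays. At -0.46 ± 0.098 it had the largest called difference in the pathway (0.73-fold, adjusted p = 0.0134), and it was at -0.38 without chow 1. Abca1, which loads cholesterol onto apolipoproteins, was called at -0.20 ± 0.0536 (0.87-fold, adjusted p = 0.0286), with chow 1 (8.44) above powder 1 (8.42). That call was lost without any 1 of chow 2, chow 4, powder 2, powder 3, powder 4 or powder 5 (adjusted p from 0.0517 to 0.067). The other Abca1 probe sets were near-constant and not called. Not called were Clu and Apod, which carry lipids between cells, at 0.11 and 0.00307, the transporter Abca2 at -0.02, and Cyp46a1, the neuronal enzyme that turns cholesterol into a form able to leave the brain, at -0.09 ± 0.0725 (adjusted p = 0.336).

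Fatty acid synthesis, which the related factor SREBP1 drives, had 1 higher and 4 lower of 7 variable genes, beside 16.1% and 38.8% of all variable probe sets. Lower were Me1, a source of reducing power (-0.30 ± 0.0545, adjusted p = 0.00816), Acaca, the carboxylase of the committed step (-0.27 ± 0.0499, adjusted p = 0.00875), Acss2, which activates acetate (-0.21 ± 0.0449, adjusted p = 0.0135), and Fasn, the fatty acid synthase (-0.12 ± 0.0274, adjusted p = 0.0155). For all 4 every chow array lay below every powder array, as in 36% of all variable probe sets, with Acaca at 9.30, 9.50, 9.46 and 9.48 on the chow arrays and 9.70, 9.76, 9.71, 9.61 and 9.75 on the powder arrays. Elovl6, which lengthens the fatty acids that Fasn makes, went the other way, at 9.03, 9.21, 9.05 and 9.03 on the chow arrays and 8.68, 8.65, 8.83, 8.72 and 8.81 on the powder arrays. It rose by 0.34 (0.34 ± 0.0534, 1.27-fold, adjusted p = 0.00541) with no overlap. The brighter Elovl6 probe set, 1388108_at, was near-constant and not called (8.93e-05, adjusted p = 0.359). Me1, Acaca and Fasn also each had a near-constant probe set that was not called. The desaturases Scd2 (0.25 ± 0.131, adjusted p = 0.171) and Fads1 (-0.06 ± 0.0709, adjusted p = 0.553) were not called.

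**Figure D4:**
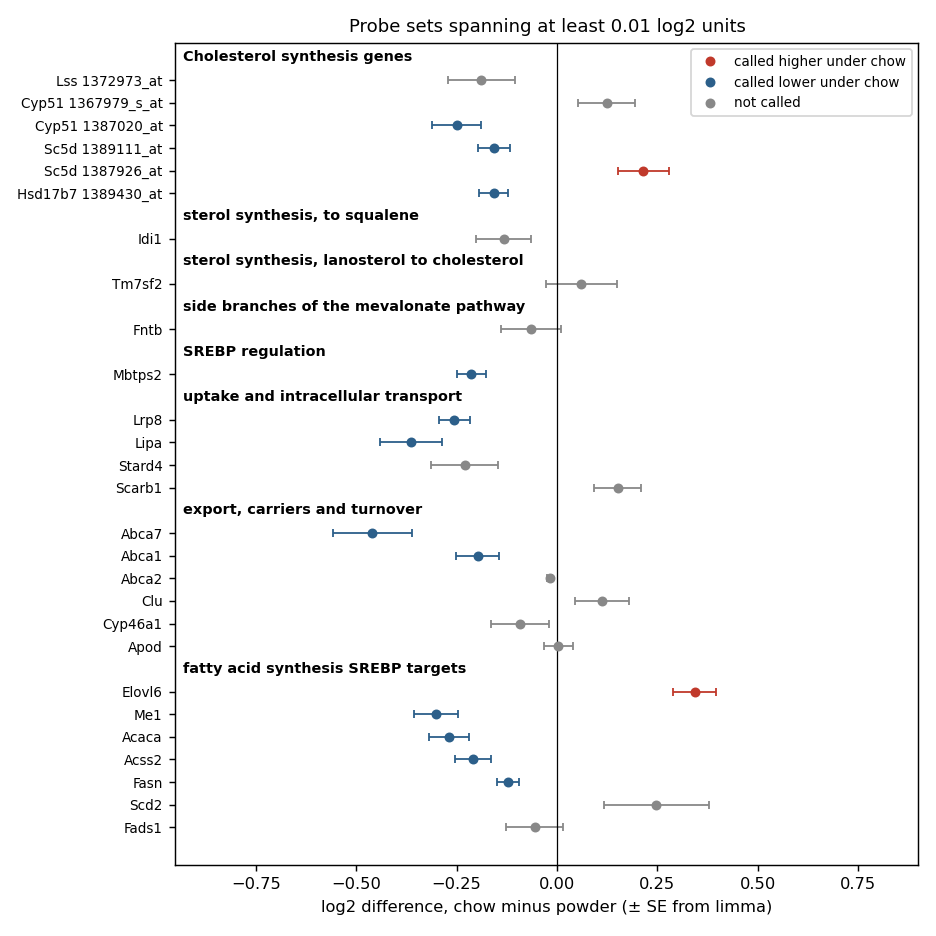
Log2 difference, chow minus powder, with its SE from limma (4 chow and 5 powder arrays), for the 6 variable cholesterol synthesis probe sets and the 21 variable probe sets of the other pathway lists, coloured by the test. Called differences run from -0.46 (Abca7) to 0.34 (Elovl6), 12 of them lower and 2 higher under chow.

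Among the 14211 other genes, 5 had a pattern closest to Cyp51 1387020_at over the 9 arrays, judged by the root-mean-square distance after each was centred on its own mean. They were Lpin2 (0.0411 log2 units), Nid1 (0.047), Mier1 (0.0501), Tbc1d4 (0.0526) and Wdr46 (0.0533), where the median gene lay at 0.149. Lpin2, a phosphatase of glycerolipid synthesis, read 8.50, 8.50, 8.59 and 8.58 on the chow arrays, against 8.87, 8.73, 8.75, 8.74 and 8.97 on the powder arrays. All 5 lay wholly below the powder arrays on the chow arrays. The way they were picked makes this likely, since Cyp51 1387020_at does so itself, and it is not a separate result.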

How the data were processed

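Total RNA of the thalamus was hybridised to 9 oligonucleotide arrays of 1 colour, 4 for chow and 5 for powder. Per the labels, biotin-labelled cRNA was made from 100 ng of RNA purified with TRIzol and RNeasy columns. The authors deposited a table of log2 values with 31099 probe sets and a column for each array. How it was normalized is not given in the sources used here. The log2 scale was read from the values (5.37 to 14.0), and any centring stays unknown. Array medians were 7.391 to 7.396 under chow and 7.398 to 7.402 under powder. No detection calls were used, so no background level could be set, and the number of arrays limits the precision. The labels speak of 10 rats and do not say which animal each sample came from, so p-values reflect only how far these samples spread, which may be technical.

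Chow minus powder was fitted without the 57 control probe sets in R 4.3.3 with limma 3.58.1 (lmFit, eBayes, no covariates) over all 31042 rat probe sets, and a probe set was called where its adjusted p (Benjamini-Hochberg) was under 0.05. Values are the log2 difference ± SE unless an SD is stated. A probe set was named only where the annotation gave 1 symbol (20826 probe sets, with 436 of several symbols and 9780 of none listed). The 7 genes, the other gene lists and the 0.01 limit were chosen with earlier results of these data known. Text names every called variable gene of the pathway lists and Fdft1, Srebf2, Insig1 and Cyp46a1, and for markers those called on variable probe sets or of highest value. The fitting step was tested on simulated data. Promoter sequences came from RefSeq, with an entry for 6 of the 7 genes. Alternatives covered the variance model, scaling, filters, array weights, label numbers as a block, single arrays left out, 1 probe set per gene, the threshold and a beta-actin covariate.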

Additional observations from a re-analysis of the deposited data

Results flagged for a closer look

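For 64 groups of arrays (both diets for the 11 cholesterol synthesis and the 21 variable pathway probe sets), the array farthest from the rest of its group was compared with the group's range by Dixon's test at the 95% level. This picks about 1 in 20 groups by chance, and it picked 6. Lss 1372973_at was 8.3597 on chow 1, with the other chow arrays at 8.6276 to 8.6633. Chow 1 was also low for the sterol carrier Stard4, at 8.1323 against 8.4066 to 8.4411, and for Mbtps2, at 7.7788 against 7.8097 to 7.8148. Elovl6 was 9.2054 on chow 2, above the other chow arrays at 9.032 to 9.0546. Among powder arrays, Stard4 was 8.3827 on powder 4, below the others at 8.6056 to 8.6856, and Fads1 was 10.101 on powder 5, below the others at 10.292 to 10.328. The part of the low thalamic marker level of chow 1 in these values was not tested.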

How the results depend on the processing

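On the variable cholesterol synthesis probe sets, the 1 higher and 3 lower calls kept their number under array weights, quantile normalization, a trended robust variance, medians subtracted from each array, no variance moderation, an adjusted p under 0.1, and without the dimmest or the near-constant probe sets. Both counts were 0 with the beta-actin covariate and with label numbers as a replicate block. The other counts, over all member and all pathway probe sets, were also 0 in those 2 fits. Label numbers did not pair the arrays, since deviations of same-numbered arrays correlated at -0.31, 0.19, -0.33 and -0.16, 0 of 4 chow arrays correlated best with their own number, and over all 31042 probe sets the block left 1 higher and 18 lower calls. With 1 probe set per gene, the brightest, members called were 0 higher and 2 lower, and pathway genes called higher were 1 in all and 0 variable. This choice left out the called probe sets Cyp51 1387020_at, Sc5d 1387926_at and Elovl6 1394401_at, each dimmer than another probe set of its gene. After quantile normalization and with medians subtracted, 6 member probe sets were higher in each case, pathway calls were 66 and 81 higher and 10 and 10 lower, and 2 variable pathway probe sets were higher. Near-constant probe sets span less than these rescalings moved the ones named below. Over all rat probe sets the split was then 15610 higher and 1854 lower, and 27206 and 2141, against 5558 and 5195 as deposited. Without near-constant probe sets the pathway gave 2 higher and 10 lower, and at an adjusted p under 0.1 it gave 10 higher, 2 of them variable. With 1 array left out in turn, member calls were 0 to 1 for higher and 3 to 4 for lower (variable, 0 to 1 and 2 to 3) and pathway calls 3 to 8 for higher and 11 to 15 for lower (variable, 1 to 1 and 8 to 10). Reversed after quantile normalization and with medians subtracted were the near-constant Sqle (0.03 and 0.00655), Sc5d 1390777_at (0.02 and 0.0064), Dhcr7 (0.03 and 0.00645), Srebf2 1371979_at (0.02 and 0.00643), Insig1 (0.03 and 0.00655) and Fdft1 1389906_at (0.02 and 0.00653), and after quantile normalization Abca2 (0.00553, not called). With the block Sqle was at 2.69e-05 and Apod at -0.000684, and with the covariate Sqle was at 6.07e-05, Lss 1368086_a_at at -3.19e-05, Apod at -0.00824, Insig1 at 5.71e-05 and Fdft1 1367839_at at -0.000139, none called. Leaving out single arrays turned the uncalled Sqle (-9.25e-05 to 2.69e-05), Apod (-0.01 to 0.04), Tm7sf2 (-0.04 to 0.11), Fads1 (-0.10 to 0.00182) and Insig1 (-6.55e-05 to 1.59e-05). Where no cause is given, the cause was not tested.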
